A study of Mus musculus with 16 samples.

Results

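The m.12436 60% tumors were compared with the wild-type tumors of their own batch. The 3 mutant tumors and 3 wild-type tumors were taken by their labels and by the batch that the deposited table gives each cell. They are 6 of the 16 tumors of the series, and their 61715 cells are part of 163343 in all. The question was how a truncating edit of a mitochondrial gene, carried by the cancer cells alone, goes with the cellular make-up of the tumor around them.

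Tumors grew under the skin of male C57/BL6 mice of 8 to 11 weeks from B78 cells, an amelanotic derivative of the B16 mouse melanoma, and were profiled by droplet single-cell RNA sequencing after enzymatic digestion and sorting of live cells. In the mutant tumors the injected cells carried m.12436G>A at a labelled heteroplasmy of 60%, heteroplasmy being the percentage of mitochondrial genomes that hold the edit. The wild-type tumors came from B78 cells without it. All mutant tumors descend from the same edited population, so repeat editing of B78 cells was not tested. The hosts carried no edit, and neither did the immune cells, vessels and fibroblasts they supplied. Each tumor is a library of its own, and p-values set a difference between groups only against the spread among tumors of a group. The fitted models borrow part of this spread from other classes or clusters of the same tumors.

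Complex I of the respiratory chain takes electrons from NADH and pumps protons across the inner mitochondrial membrane. mt-Nd5 encodes one of its membrane subunits and is itself encoded in mitochondrial DNA, so a cell can carry edited and unedited copies together. Tumors recruit monocytes from the blood, which mature into macrophages or dendritic cells, as well as neutrophils and lymphocytes.

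The edited position is shown because it is the only designed difference between the 2 groups. mt-Nd5 lies at chrM:11742-13565 of GRCm39, plus strand, on the mitochondrial chromosome, and holds 607 codons before its stop codon. Position 12436 is base 2 of codon 232, and the change is W232* at the protein level. In mitochondria TGA is read as tryptophan and TAA as stop. The window chrM:12416-12456 is printed 5′ to 3′ on the plus strand, with the codon in capitals and the edited base at position 21.
wild type: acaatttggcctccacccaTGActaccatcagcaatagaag
m.12436 edited: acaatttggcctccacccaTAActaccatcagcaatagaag
The second line is the first with the base changed, not a read from these cells. The deposited table holds no alleles, so heteroplasmy in the tumors was not measured here.

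The libraries held 6371, 10993 and 11136 cells in wild-type tumors 4, 5 and 7, and 10478, 12074 and 10663 in m.12436 60% tumors 1, 2 and 3. Median UMIs per cell, the number of distinct RNA molecules counted, were 6335, 4256 and 3866 in wild type and 4890, 3130.5 and 3398 in the mutant. Of 61309 different barcode sequences, 405 occurred in more than 1 of the 6 libraries. Wild-type tumor 5 stood apart by an erythroid share of 5.93%, against 0.0497% to 1.05% in the others, and by the lowest cancer cell share. Results that rest on it are given with and without it. The class names are those of the authors, and gene values were not used here, so the names were not checked against markers. By the deposited ploidy call 97.8% of the cells of the cancer class were aneuploid, and 0% to 0.943% of those of the immune classes. Within the macrophages, cluster 36 with 106 cells had 52.8% called aneuploid, which also goes against its label. Its median doublet score was 0.142, against 7.46e-05 to 0.0372 in the other macrophage clusters, and the part of doublets in it was not tested. Of the cells with other host names, 35.5% of the fibroblast-labelled, 16.9% of the endothelial-labelled and 12.2% of the erythroid-labelled ones were called aneuploid, which goes against their labels.

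Among the 15 classes, natural killer cells, dendritic cells and CD4 T cells made up more of every mutant tumor than of any wild-type tumor. B cells made up less. With cells of at least 1000 genes alone, the groups overlapped in most of these classes. Natural killer cells, lymphocytes that kill stressed cells without prior priming, were 2.04%, 3.18% and 2.24% of the cells of the wild-type tumors and 4.24%, 3.68% and 4.08% of those of the mutant tumors. The means were 2.49% ± 0.610 and 4.00% ± 0.289 (SD, n = 3 and 3), a fold of 1.61. Wild-type tumor 5 was the highest of its group and still lay under the lowest mutant tumor. The exact two-sided permutation test of 3 against 3 tumors has 20 arrangements and cannot go below 0.1, which is the value it gave.

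Dendritic cells, which carry antigen to T cells, were 2.92%, 2.81% and 2.68% in wild type and 3.60%, 3.49% and 4.64% in the mutant. The wild-type tumors lay close together, and mutant tumor 3 was the farthest from them. CD4 T cells, the helper and regulatory T cells, were 1.65%, 2.18% and 1.46% against 2.45%, 2.20% and 2.78%. Here wild-type tumor 5 and mutant tumor 2 nearly touched. B cells were 0.644%, 0.628% and 0.700% against 0.554%, 0.373% and 0.497%. The B cell gap rested on 344 cells in all 6 tumors, and with cells of at least 1000 genes alone the difference changed sign, to 0.0298 percentage points higher in the mutant.

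In each of the larger myeloid classes the groups overlapped. Monocytes, which made up the largest class, were 16.98%, 30.2% and 20.4% of wild-type and 36.3%, 39.8% and 28.7% of mutant tumors. Wild-type tumor 5 lay above mutant tumor 3, and the other tumors kept apart. Neutrophils, short-lived granulocytes, were 5.65%, 14.7% and 12.9% against 3.45%, 4.58% and 7.15%. The overlap came from wild-type tumor 4 and mutant tumor 3. Macrophages, the tissue phagocytes, were 25.4%, 13.3% and 20.3% against 11.6%, 12.7% and 17.3%, and spread widely in wild type.

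T cells of the class with no further name were 1.41%, 2.77% and 1.38% of wild-type and 3.26%, 3.05% and 2.40% of mutant tumors, again overlapping through wild-type tumor 5. CD8 T cells, the cytotoxic T cells, averaged 1.49% ± 0.824 and 1.47% ± 0.433 (SD, n = 3 and 3). Cancer cells averaged 29.2% ± 9.004 and 26.8% ± 3.05, and fibroblast-labelled cells 3.53% ± 0.930 and 3.00% ± 2.04. None of these 3 classes showed a direction that held when each tumor was left out in turn. Erythroid cells ranged from 0.198% to 5.93% in wild type and from 0.0497% to 1.05% in the mutant. Endothelial cells ranged from 0.109% to 0.879% and from 0.258% to 0.591%. Mast cells and basophils, both cells of allergic reactions, held 106 and 8 cells in the 6 tumors and were too few to compare.

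**Figure D1:**
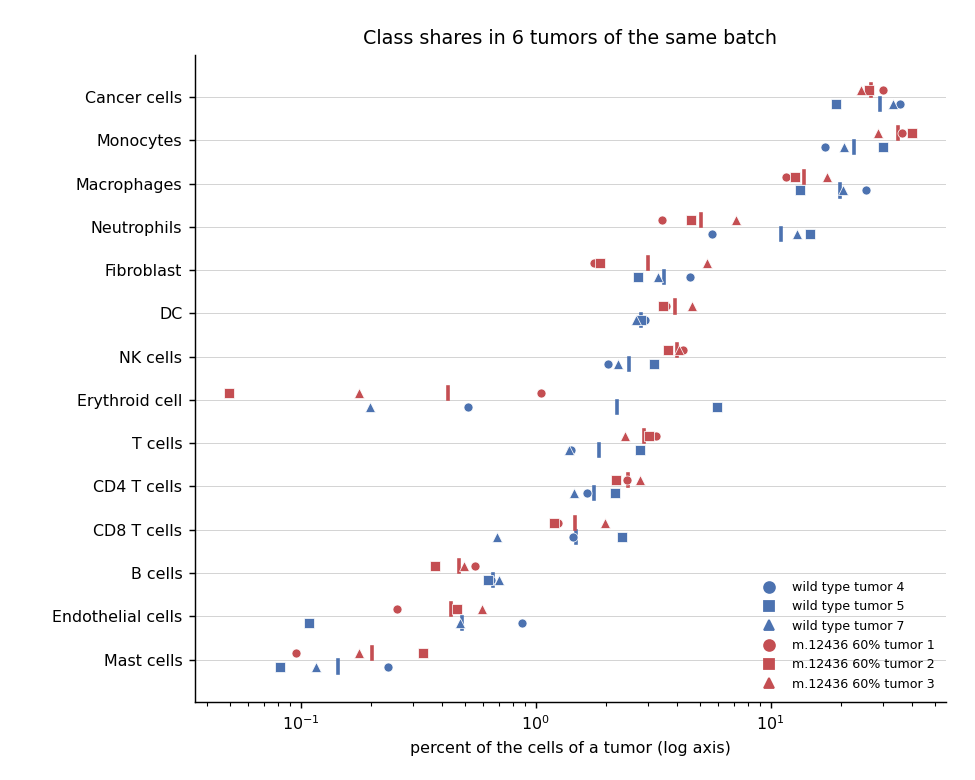
Percent of the cells of a tumor in each class (log axis), for 14 classes with basophils left out; symbols are tumors, vertical lines are means of 3 tumors, blue is wild type and red m.12436 60%. The red symbols lie to the right of all blue ones for natural killer cells, dendritic cells (DC) and CD4 T cells, and to the left for B cells.

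A fit across classes asked whether these differences pass a threshold. edgeR's quasi-likelihood test on cells per class called 0 of 15 classes, 0%, at an adjusted p of 0.05. Unadjusted, 2 classes had a p under 0.05, neutrophils with a log2 fold of −1.13 (SE 0.45, edgeR adjusted p = 0.285) and natural killer cells with 0.68 (SE 0.26, edgeR adjusted p = 0.285). DESeq2 called 0 as well. Without wild-type tumor 5 edgeR called 3 classes, monocytes, natural killer cells and T cells, with log2 folds of 0.90, 0.90 and 1.05 and an adjusted p of 0.0274 in each. By non-overlap, 3 of 15 classes, 20%, were higher and 1 of 15, 6.67%, was lower. Of the 20 arrangements of 3 against 3 tumors, 1 has all mutant tumors highest and 1 lowest, whether or not a difference exists. By log2 fold natural killer cells stayed between 0.56 and 0.90 in all 14 alternatives run, and neutrophils between −1.47 and −0.74.

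The 39 numbered clusters each lie within 1 class. The lowest edgeR p among them was that of monocyte cluster 6. Its mean share was 2.89% ± 0.616 in the wild-type and 10.1% ± 0.816 in the mutant tumors, a 3.50-fold increase (SD over 3 tumors each). By tumor it was 3.59%, 2.47% and 2.60% in wild type and 9.77%, 11.0% and 9.49% in the mutant. No wild-type tumor came near the mutant ones. edgeR gave a log2 fold of 1.81 (SE 0.38, adjusted p = 0.0367), the only 1 of 39 clusters, 2.56%, past the threshold. Unadjusted, 4 clusters had a p under 0.05, and DESeq2 called 2, clusters 6 and 28. The call of cluster 6 was lost when wild-type tumor 5 or 7 or any of the 3 mutant tumors was left out, with edgeR adjusted p of 0.0586 to 0.230, while the log2 fold stayed between 1.70 and 1.99 in every alternative.

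Cluster 6 was also a larger part of the monocytes themselves. It held 21.2%, 8.16% and 12.7% of the monocytes of wild-type tumors and 27.0%, 27.7% and 33.1% of those of mutant tumors. Monocyte cluster 5 went the other way, with 23.8%, 18.9% and 46.2% against 12.7%, 9.44% and 14.9%. Both sets were free of overlap. Clusters 0 and 1, the other monocyte clusters, averaged 24.8% and 31.6% of wild-type and 30.0% and 28.4% of mutant monocytes with wide overlap. Over all 6 tumors cluster 6 had a median of 3070 UMIs per cell and 9.60% ribosomal UMIs, against 12.5% to 12.96% in the other 3 monocyte clusters. Its genes are not in the table, so it carries no further name here.

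Outside the batch, cluster 6 held 1.32% to 7.03% of the cells of the 4 other wild-type tumors and 2.85% to 4.66% of the m.11944 60% tumors, in which the same gene is cut at another codon. In the m.12436 80% tumors it held 4.72% to 5.87%, inside the range of the 4 other wild-type tumors. Of these 4, only wild-type tumor 6 shares the batch of m.12436 80%, and a difference within that batch was not tested. All these tumors belong to batches other than that of m.12436 60%, and the values stand side by side only. The difference from same-batch wild type was 7.21 percentage points for m.12436 60% and 0.389 for m.11944 60%. The difference between these 2 effects had an exact permutation p of 0.06 over 400 arrangements within the batches and an adjusted p of 0.856 over 39 clusters.

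**Figure D2:**
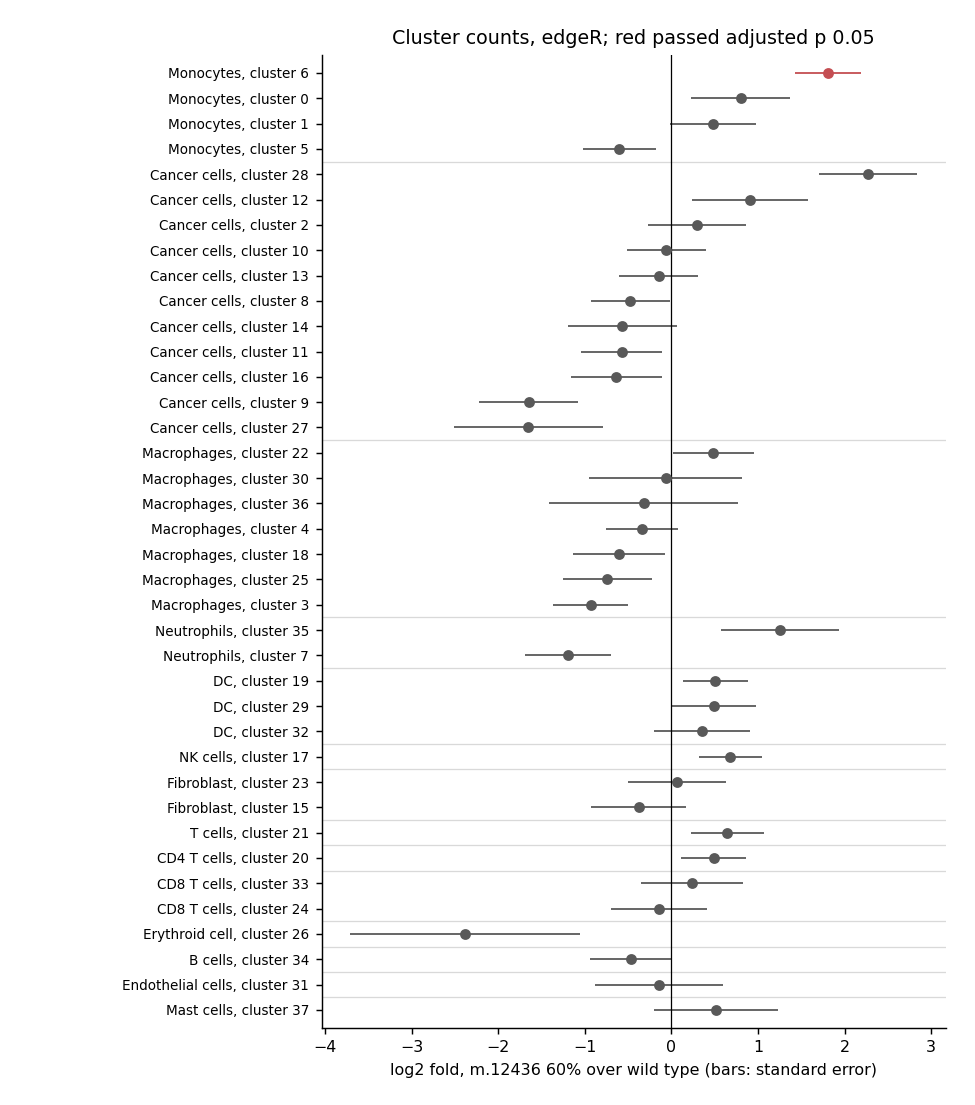
log2 fold of cell counts, m.12436 60% over wild type, by edgeR, for the 38 clusters of at least 100 cells, grouped by class. Bars are standard errors derived from the F statistic of the test. Cluster 6 of the monocytes, in red, is the only one past the adjusted threshold, and cluster 28 of the cancer cells has the highest fold.

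Non-overlap of the 3 against 3 tumors was seen for 6 higher clusters of 39, 15.4%, and 2 lower, 5.13%. The share of lower ones is near what the arrangements of tumors give without any difference. The higher ones were 6, 28 and 35, and 17, 19 and 20, which are the natural killer cluster, a dendritic cluster and the CD4 T cell cluster. The lower ones were cancer cluster 9 and B cell cluster 34. Dendritic cluster 19 was 1.63%, 1.46% and 2.01% of wild-type and 2.14%, 2.27% and 2.86% of mutant tumors. Its log2 fold of 0.51 (SE 0.37) was near that of the class. Clusters 17, 20 and 34 are whole classes, whose values are given above.

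Cancer cell cluster 28, a minor cluster, held 8, 21 and 24 cells in the wild-type tumors and 57, 154 and 84 in the mutant tumors. As percent of all cells this was 0.126%, 0.191% and 0.216% against 0.544%, 1.28% and 0.788%, with mutant tumor 1 the closest to wild type. edgeR gave a log2 fold of 2.27 (SE 0.57, adjusted p = 0.0577), just outside the threshold. TMM scaling, DESeq2, the fit over all 16 tumors and the removal of aneuploid cells outside the cancer class brought it inside, with adjusted p of 0.0486, 0.00714, 0.00391 and 0.0472. In the other 8 of 12 alternatives it stayed outside. With a tumor left out the edgeR adjusted p was 0.0603 to 0.230, at log2 folds of 1.89 to 2.52. Outside the batch, cluster 28 held 0.139% to 0.312% of the cells of the 4 other wild-type tumors. It held 0.660% to 0.842% of the m.11944 60% and 0.659% to 0.917% of the m.12436 80% tumors. The range of each edited group lay above that of all wild-type tumors. Values from other batches stand side by side only.

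Cancer cell cluster 9 held 5.98%, 9.37% and 16.8% of the cancer cells of wild-type tumors and 1.77%, 4.01% and 5.94% of those of mutant tumors. Wild-type tumor 4 and mutant tumor 3 were almost level, and with cells of at least 1000 genes the groups overlapped. The edgeR log2 fold was −1.65 (SE 0.57, adjusted p = 0.233). Over the 6 tumors cluster 9 had 94.7% aneuploid cells and a median of 18713.5 UMIs per cell, more than the 11710.5 of cluster 28, and 27.2% of its cells were assigned to S phase against 13.5%. The remaining 9 cancer clusters overlapped between the groups in their share of cancer cells.

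Among macrophages and neutrophils 1 minor cluster each was a larger part of its class in every mutant tumor. Macrophage cluster 22 held 7.92%, 6.54% and 4.42% of wild-type and 12.2%, 15.4% and 10.9% of mutant macrophages. As percent of all cells it was 2.01%, 0.873% and 0.898% against 1.41%, 1.95% and 1.89%, with overlap. Its cells had a median of 1351.5 UMIs and 2.34% mitochondrial UMIs, against 0.621% to 1.354% in the other macrophage clusters, and with cells of at least 1000 genes its groups overlapped. Neutrophil cluster 35 held 2.78%, 0.309% and 0.975% of wild-type and 4.97%, 7.59% and 3.54% of mutant neutrophils, and cluster 7 the rest. Cluster 35 numbered 116 cells with a median doublet score of 0.138, on a scale that reached 0.472 among the kept cells, and 6.57e-05 in cluster 7. The part of doublets in it was not tested.

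Counted over 27 clusters of 5 classes, 4 were a larger part of their class in every mutant tumor, 14.8%, and 3 a smaller part, 11.1%. These were 6, 22, 28 and 35, and 5, 7 and 9. All had an exact permutation p of 0.1, the smallest possible, and none passed an adjusted 0.05. Clusters 7 and 35 make up all neutrophils, so the lower share of 7 is the higher share of 35 counted again.

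**Figure D3:**
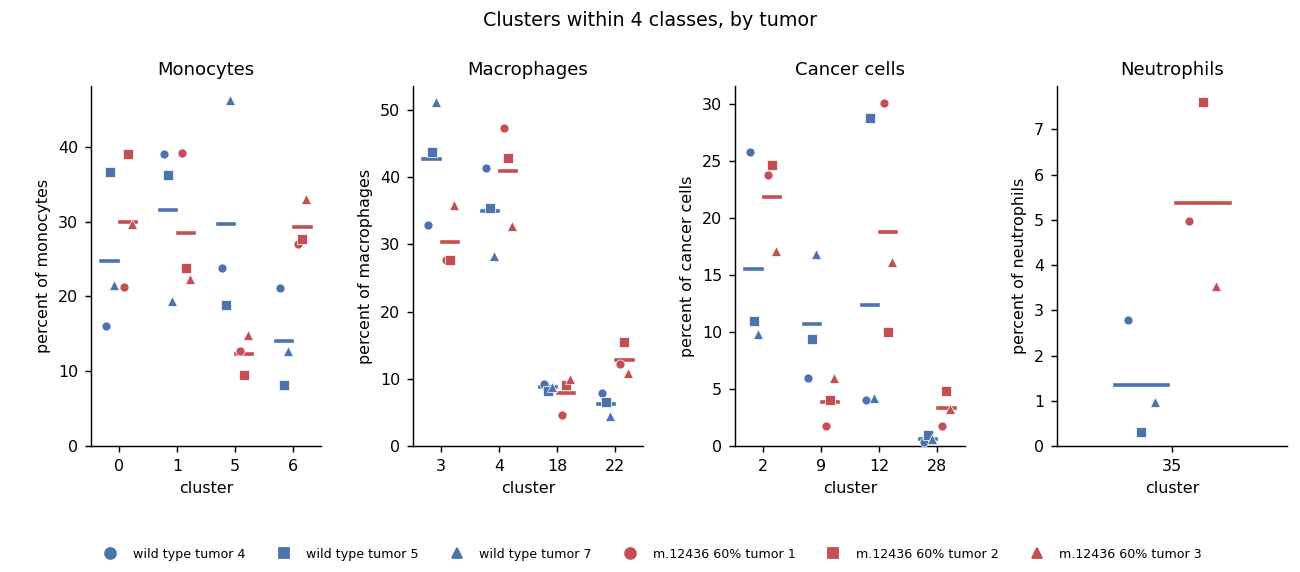
Percent of the cells of a class in selected clusters, for monocytes, macrophages, cancer cells and neutrophils; symbols are tumors and bars are means of 3. Clusters 6, 22, 28 and 35 are higher and 5 and 9 lower in all red symbols than in the blue ones, while clusters 0, 1, 2, 3, 4, 12 and 18 overlap.

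Measures of single cells were compared within the 11 classes that had at least 20 cells in every tumor, each tumor giving its median or mean. Of 132 pairs of class and measure, 12, 9.09%, were higher in all 3 mutant tumors and 7, 5.3%, were lower. The share of lower pairs is near the 1 of 20 arrangements that has this order without any difference. limma, fitted over the classes of a measure, called 1 of 11 classes, 9.09%, for each of genes per cell, ribosomal percent and aneuploid share. For each of the other 9 measures it called 0 of 11, 0%, with 11 of their 99 pairs at an unadjusted p under 0.05.

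Mitochondrial UMIs, the transcripts of the genome that was edited, took a larger part of the RNA of cancer cells in the mutant tumors. The median percent per cancer cell was 0.906%, 0.982% and 0.890% in wild type and 1.052%, 1.058% and 1.101% in the mutant. All mutant tumors lay above wild type. The difference was 0.144 percentage points (SE 0.0387, limma adjusted p = 0.102), which did not pass the threshold, and it stayed between 0.126 and 0.172 in all 11 alternatives run. Of 9 cancer clusters with enough cells, all had a higher mean in the mutant, and in 4 of them, clusters 2, 12, 14 and 16, the groups did not overlap. Over all 30 clusters measured, 5, 16.7%, were higher without overlap, the last being monocyte cluster 5.

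In each of the other 10 classes measured the groups overlapped, and whether the difference in cancer cells departs from theirs was not tested. Monocytes had 0.734%, 0.697% and 0.739% in wild type and 0.721%, 0.692% and 0.744% in the mutant, the same range. The difference in monocytes was −0.00412 percentage points (SE 0.0330). Macrophages had 0.807%, 0.675% and 0.711% against 0.747%, 0.773% and 0.810%, and neutrophils 0.644%, 0.474% and 0.391% against 0.447%, 0.400% and 0.576%. Cancer cells had a median of 17833, 17316 and 15476 UMIs in wild type and 16013.5, 11930.5 and 13917 in the mutant, and the part of depth in the mitochondrial difference was not tested. In the other batch m.11944 60% cancer cells differed from wild type by 0.0163 percentage points, and the difference of the effects had an exact permutation p of 0.255.

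Ribosomal UMIs, those of genes for ribosomal proteins, which the authors summed by a list they do not state, were lower. Cancer cells had a median of 23.9%, 23.0% and 23.0% in wild type and 21.0%, 21.6% and 21.8% in the mutant, a difference of −1.85 percentage points (SE 0.589, limma adjusted p = 0.0534). CD4 T cells had 14.1%, 13.2% and 14.7% against 11.9%, 12.5% and 10.9% (difference −2.22, SE 0.695, limma adjusted p = 0.0534). Neither passed the threshold, though no mutant tumor overlapped wild type. B cells, CD8 T cells and fibroblast-labelled cells also lay lower without overlap.

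All 11 classes had a lower mean ribosomal percent in the mutant tumors, from −0.0102 percentage points in neutrophils to −7.98 in fibroblast-labelled cells. Across 30 clusters, 27 had a lower mean and 10, 33.3%, were lower without overlap, 5 of them cancer clusters. Monocytes had 12.3%, 12.9% and 13.1% against 12.4%, 11.8% and 10.7%, with overlap. Within cluster 6, the monocyte cluster that was larger in the mutant, the median was 10.1%, 10.3% and 10.5% against 9.94%, 9.34% and 9.06%. Macrophages had 10.2%, 10.9% and 10.7% against 11.0%, 9.95% and 9.32%.

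**Figure D4:**
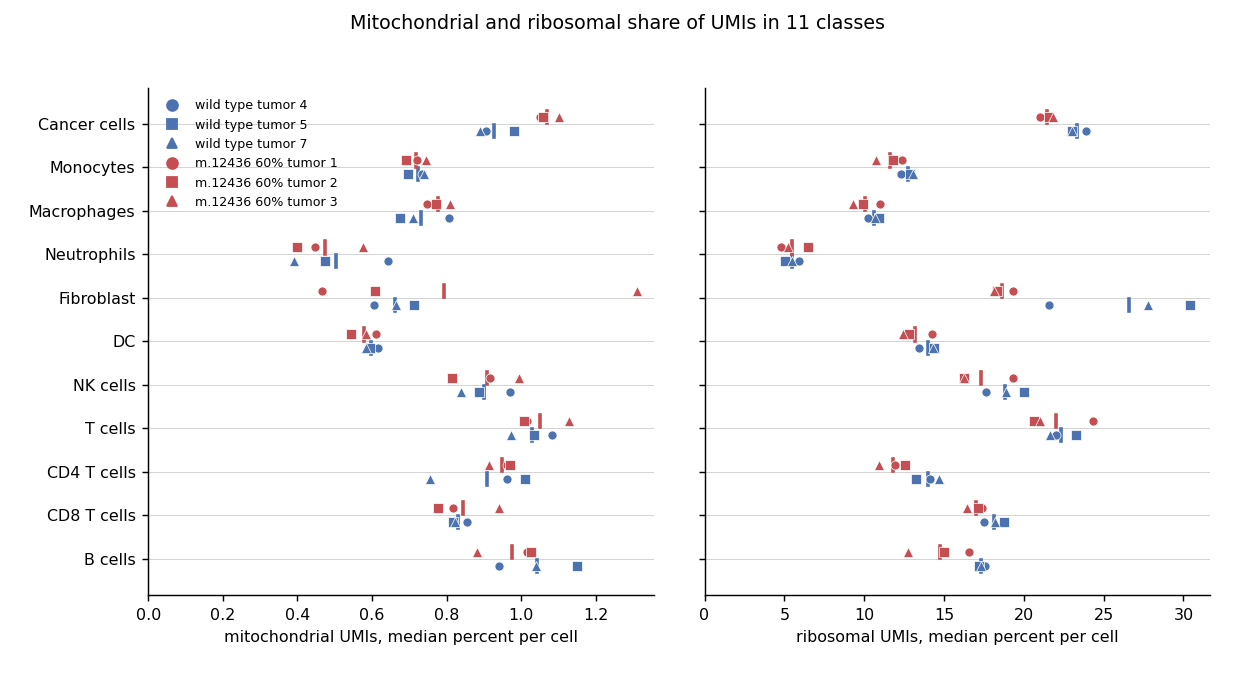
Median percent of the UMIs of a cell that are mitochondrial (left) or ribosomal (right), for 11 classes; symbols are tumors and vertical lines are means of 3. Cancer cells are the only class in which all 3 mutant tumors lie above wild type for mitochondrial UMIs, and for ribosomal UMIs the red symbols lie lower in cancer cells, CD4 T cells, CD8 T cells, B cells and fibroblasts.

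The share of fibroblast-labelled cells overlapped between the groups, and the fraction of them called aneuploid was lower in the mutant tumors. It was 63.8%, 55.3% and 51.6% in wild type and 8.60%, 7.96% and 19.8% in the mutant, a difference of −44.8 percentage points (SE 5.07, limma adjusted p = 0.00710). The groups were far apart, and the call held with each tumor left out in turn. It was lost with cells of at least 1000 genes (limma adjusted p = 0.128), with clusters weighted equally (0.259) and in the fit over all 16 tumors (0.0652), at differences of −55.7, −35.5 and −44.8. In most other classes the aneuploid share is at or near 0%, and the fit borrows its spread in part from them. In the other batch the m.11944 60% difference was −5.35 percentage points. The difference of the effects was −39.4 (exact permutation p = 0.17).

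By number, 185, 166 and 191 fibroblast-labelled cells were called aneuploid in wild type and 16, 18 and 113 in the mutant. Those were 2.90%, 1.51% and 1.72% of all cells against 0.153%, 0.149% and 1.06%, without overlap (exact permutation p = 0.1). The cells not called aneuploid were 1.65%, 1.22% and 1.61% of all cells in wild type and 1.62%, 1.72% and 4.30% in the mutant, with overlap. In cluster 15 the aneuploid share was 53.8%, 66.3% and 67.0% against 10.4%, 9.22% and 18.0%. In cluster 23, the other fibroblast cluster, it was 81.1% in wild-type tumor 4 and 5.88% to 23.9% in the other 5 tumors.

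The ribosomal percent of fibroblast-labelled cells fell in the same tumors. The medians were 21.6%, 30.4% and 27.8% in wild type and 19.3%, 18.3% and 18.2% in the mutant, a difference of −7.98 percentage points (SE 1.97, limma adjusted p = 0.0435). The groups did not overlap, and wild-type tumor 4 came nearest to the mutant tumors. Split by ploidy call the groups overlapped, with medians of 28.0%, 37.7% and 33.1% against 25.3%, 28.0% and 30.1% among aneuploid and 20.4%, 23.4% and 16.4% against 18.9%, 17.7% and 17.4% among the other cells. The call was lost in 7 of 11 alternatives, among them the mean over cells (−4.98 percentage points, limma adjusted p = 0.131) and the omission of wild-type tumor 7, mutant tumor 2 or mutant tumor 3. In the other batch the m.11944 60% difference had the other sign, at 1.76 percentage points. The difference of the effects had an exact permutation p of 0.095.

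B cells of the mutant tumors had more genes detected, with medians of 976, 1024 and 915 per cell in wild type and 1192.5, 1399 and 1612 in the mutant. The log2 difference was 0.52 (SE 0.16, limma adjusted p = 0.0442), and no tumor overlapped. The mean doublet score of the same cells was 0.0239, 0.0189 and 0.0124 against 0.0352, 0.0406 and 0.0554, and its part in the gene numbers was not tested. The call was lost in 9 of 11 alternatives. With cells of at least 1000 genes the log2 difference was 0.07. Each tumor gave 41 to 78 B cells.

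The cell cycle columns give each cell an S score and a G2M score, which average genes of DNA replication and of division, and a phase called from them. In monocytes, 10.4%, 7.02% and 7.38% of cells were assigned to G2M phase in wild type and 17.9%, 20.6% and 10.8% in the mutant. Mutant tumor 3 lay just above wild-type tumor 4, and mutant tumors 1 and 2 far above. The difference was 8.17 percentage points (SE 3.78, limma adjusted p = 0.156). The mean G2M score of monocytes stayed negative in every tumor, from −0.0702 to −0.0583 in wild type and from −0.0581 to −0.0282 in the mutant, and cycling is not read from the phase alone.

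CD4 T cells showed 27.6%, 32.1% and 27.0% in G2M phase against 44.0%, 37.6% and 37.2% (difference 10.7, SE 3.73, limma adjusted p = 0.0896), and T cells 15.6%, 18.0% and 16.9% against 28.4%, 25.3% and 19.5%. Both were free of overlap. The mean G2M score of CD4 T cells ran from −0.0246 to −0.00806 in wild type and from −0.00324 to 0.0145 in the mutant. Cycling is not read from the phase alone here either. Neutrophils, with a median of 686 genes per cell, had 35.0%, 34.2% and 30.8% in G2M phase against 34.0%, 37.6% and 28.7%, with overlap. In 7 of 30 clusters, 23.3%, the G2M share was higher without overlap, among them monocyte clusters 1 and 6. Mutant tumors 1 and 2 lay above all wild-type tumors in 23 of 30 clusters each, and mutant tumor 3 in 7. Without mutant tumor 3 limma called 7 of 11 classes. Median UMIs of mutant tumors 1 and 2 were the highest and the lowest of the mutant group, and the part of depth in the phase calls was not tested. In cancer cells the groups overlapped, at 13.2%, 11.7% and 18.9% against 16.3%, 15.1% and 16.6%.

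**Figure D5:**
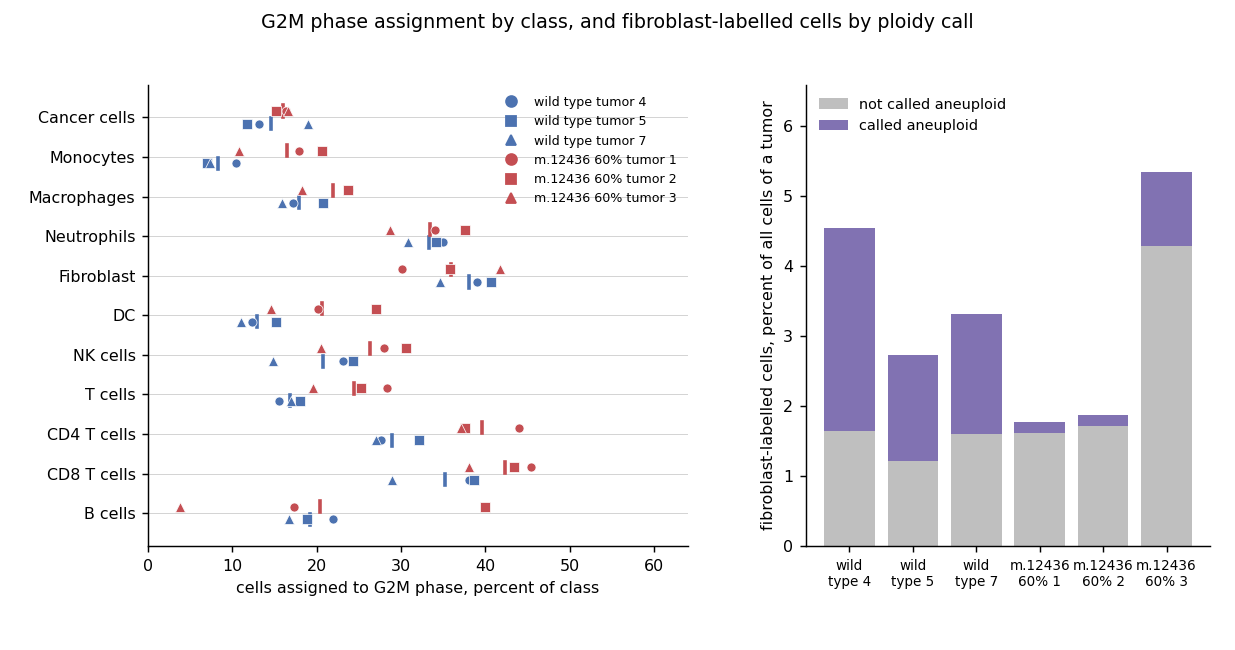
Left, percent of the cells of a class assigned to G2M phase, with a symbol for each tumor and vertical lines for means of 3; right, fibroblast-labelled cells as percent of all cells of a tumor, divided by ploidy call. Monocytes, T cells and CD4 T cells lie higher in all mutant tumors, and the aneuploid part of the fibroblast bars is smaller in each of them, with 0.149% to 1.06% against 1.51% to 2.90%.

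The remaining measures passed no threshold. S phase in monocytes covered 16.5%, 23.5% and 19.0% of cells in wild type and 25.8%, 27.9% and 22.6% in the mutant. Cancer cells had 20.8%, 20.8% and 20.96% in S phase against 21.1%, 18.5% and 19.8%, nearly level. The epithelial score, which averages cytokeratins, Epcam and Sfn, was 7.15, 7.17 and 6.07 in wild-type cancer cells and 6.17, 4.96 and 5.71 in mutant ones, overlapping by 1 tumor of each group (difference −1.18, SE 0.396, limma adjusted p = 0.102). UMIs from dissociation-related genes took 3.38%, 4.29% and 3.79% of the RNA of cancer cells against 4.06%, 3.54% and 3.83%. In monocytes they took 3.75%, 4.74% and 4.07% against 4.42%, 3.69% and 4.16%, so neither class showed a gap. The doublet score of cancer cells averaged 0.0332 ± 0.0141 and 0.0247 ± 0.00536 (SD, n = 3 and 3), with overlap. In 4 of 11 classes, B cells, CD8 T cells, fibroblast-labelled cells and neutrophils, it was higher in every mutant tumor than in any wild-type tumor. Neutrophils had 0.00711, 0.00637 and 0.00471 against 0.00812, 0.0106 and 0.00767 (difference 0.00272, SE 0.00240, limma adjusted p = 0.586). Fibroblast-labelled cells had 0.0171, 0.0102 and 0.0189 against 0.0268, 0.0347 and 0.0209 (difference 0.0121, SE 0.00447, limma adjusted p = 0.126). The part of doublets in the other results of these classes was not tested.

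As a further mutant, m.11944 60% was set against its own wild type by differences of mean shares and measures. Its 3 tumors share a batch with wild-type tumors 1 to 3, so no wild-type tumor serves both comparisons. The difference of effects was tested by permuting labels within both batches. For 0 of 15 class shares and 0 of 39 cluster shares was the exact permutation p under 0.05, at smallest adjusted values of 0.964 and 0.856. Natural killer cells differed from same-batch wild type by 1.51 percentage points for m.12436 60% and 0.580 for m.11944 60%, monocytes by 12.4 and 1.45, and neutrophils by −6.03 and −3.47. Cluster 28 differed by 0.692 and 0.480. Nothing in the class or cluster shares is therefore shown to be particular to m.12436.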

How the data were processed

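Live cells sorted from whole tumors were sequenced and processed by the authors, who used Cell Ranger 7.0.1 with GRCm39 as the reference genome, then Seurat 4.2.0 in R 4.2.1. Harmony 0.1.0 joined the libraries, the class names drew on scType, clustifyr 1.8.0 and a manual review of marker genes by the authors, and CopyKAT 1.1.0 gave the ploidy. Kept cells had at least 500 genes, at most 37000 UMIs and at most 5% mitochondrial UMIs, and no kept cell is called a doublet. The deposited table holds cells and no genes. UMI and gene counts per cell are deposited without normalization. Mitochondrial, ribosomal and dissociation values are deposited as percent of UMIs. The doublet, S, G2M and epithelial score values, and the phase, ploidy, class and cluster calls, were made by the authors. The ceiling on mitochondrial UMIs and the joining of libraries came before deposition and can move shares and medians.

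Here shares per tumor were computed in percent of all cells. Exact 95% Clopper-Pearson intervals reached at most 1.19 percentage points, for counting error only. Tests were the exact two-sided permutation test over tumors, edgeR 4.0.16 (quasi-likelihood on cells per class or cluster, total cells as library size), limma 3.58.1 on per-tumor values and DESeq2 1.42.0 as an alternative, in R 4.3.3 and Python 3.11.15 (numpy 2.4.6, scipy 1.17.1, pandas 2.3.3, matplotlib 3.10.9), with Benjamini-Hochberg adjustment and a threshold of 0.05. UMI and gene counts entered as log2 of the median. The SE given for edgeR is the absolute log2 fold divided by the square root of the F statistic of its test. Scripts were tested on simulated data. Named were all classes, clusters past the threshold or without overlap, and measures past the threshold or else in cancer cells, monocytes, macrophages and neutrophils. Clusters 5, 7 and 22, the cancer clusters named for mitochondrial UMIs and the further classes were named after their values were seen. Members, lists and tests were chosen with earlier results of these data known. Alternatives were other denominators and scalings, the centered log ratio with 0.5 added, medians or means, floors of 1000 or 600 genes, all 7 wild-type or all 16 tumors, classes or clusters of at least 20 cells, aneuploid cells outside the cancer class removed, and each tumor left out. The floor of 600 genes and, for edgeR, the removal of aneuploid cells were chosen after seeing the data.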

Additional observations from a re-analysis of the deposited data

Results flagged for a closer look

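Differences between the effect of m.12436 60% and that of m.11944 60%, with the same-batch wild-type tumors as controls of each, had an unadjusted exact permutation p under 0.05 for 2 of 108 class measures and 8 of 288 cluster measures tested. None passed after adjustment, the smallest adjusted p being 0.165 and 0.06. The median ribosomal percent of cancer cells differed by −1.85 percentage points for m.12436 60% and by 0.497 for m.11944 60%, a difference of −2.34 (exact permutation p = 0.03, adjusted p = 0.27). By cluster the same difference was −2.56 in cluster 2, −2.63 in cluster 9, −2.90 in cluster 10, −3.51 in cluster 13 and −1.65 in cluster 16, all of them cancer clusters. The G2M phase share of monocytes differed by 8.17 and −2.05 percentage points, a difference of 10.2 (exact permutation p = 0.04, adjusted p = 0.165). In macrophage clusters 4 and 22 the difference of G2M phase shares was 6.11 and 13.2 percentage points. In fibroblast cluster 23 the difference for the dissociation percent was 0.764 percentage points.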

How the results depend on the processing

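No paired analysis was possible because the mutant tumors are numbered 1 to 3 and the wild-type tumors of the batch 4, 5 and 7. With 3 tumors a side, counts of calls moved with single tumors. The number of classes without overlap was 4, fell to 1 with cells of at least 1000 genes, and was 4 to 9 with a tumor left out. The number of clusters without overlap was 8 of 39, and 8 to 19 with a tumor left out, highest without wild-type tumor 5. As percent of non-malignant cells it was 5 of 28 and as percent of immune cells 5 of 24, where 6 of these clusters had no overlap as percent of all cells. edgeR called 0 to 3 classes and 0 to 1 clusters with a tumor left out, and 2 clusters with TMM scaling, with all 16 tumors, with DESeq2 and without aneuploid cells outside cancer. limma called 3 pairs of class and measure, 0 with cells of at least 1000 genes, 1 with all 16 tumors (the epithelial score of fibroblast-labelled cells, not one of the 3) and 2 to 12 with a tumor left out. On the 5 measures also run with means over cells it called 2 with medians and 0 with means. Clusters that differed within their class, both neutrophil clusters counted, numbered 7, and 7 to 12 with a tumor left out. The cause was not tested.

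The direction of the share turned in several classes. As edgeR called no class in the main fit, lack of a call does not mark these classes out. On the centered log ratio CD8 T cells, cancer cells and endothelial cells were 0.21, 0.017 and 0.29 higher. Without aneuploid cells endothelial and fibroblast shares were 0.154 and 1.03 percentage points higher, with edgeR log2 folds of 0.63 and 0.74. B cells (cluster 34) were higher with cells of at least 1000 genes (0.0298 percentage points, log2 fold 0.11) and against all wild-type tumors (0.0540 percentage points), as were CD8 T cells (0.484). With a tumor left out the share difference ranged from −0.416 to 0.407 for CD8 T cells, −7.52 to 0.855 for cancer cells, −0.240 to 0.145 for endothelial, −2.80 to 0.0681 for erythroid, −1.71 to 0.0789 for fibroblast-labelled and −0.00787 to 0.110 for mast cells. The edgeR log2 folds ranged from −0.36 to 0.48, −0.36 to 0.047, −0.62 to 0.58, −4.28 to 0.27, −0.95 to 0.032 and −0.050 to 1.02. The doublet score of neutrophils was −0.000196 with clusters weighted equally. Of 824 alternative values of single classes, clusters and measures, 749 kept direction and side of the threshold. Another 24 lost the threshold, 16 came to pass it and 35 turned direction. The 824 include share differences by the exact test, whose p cannot go below 0.1 with 3 tumors a side. Except against all 7 wild-type tumors, these could turn direction but could not cross the threshold. Clusters 17, 20 and 34 are whole classes and are counted again. The tally is therefore no measure of how firm the results are.

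Depth limits small classes, such as basophils with 0 to 3, mast cells with 9 to 40 and B cells with 41 to 78 cells a tumor, and a count of 0 allows up to 3. Cells could not be thinned to equal UMIs, because counts per gene were not used here.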
